A study of Mus musculus with 10 samples.

Results

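The WNT receptor and feedback genes described here are 10 genes, chosen for their place in the pathway: the R-spondin receptors Lgr4 and Lgr5, the membrane ubiquitin ligases Rnf43 and Znrf3, the inhibitors Axin2, Nkd1 and Notum, the transcription factors Sp5 and Ascl2, and the TNF receptor family member Tnfrsf19 (also called Troy). They were taken by symbol from the 54838 genes listed for each library. No measured value entered that choice, although results of these libraries were known when it was made. Each library held the RNA of crypts isolated from the jejunum of 1 mouse, 5 WT and 5 Arid3a cKO in all, and the study asked how loss of the transcription factor ARID3A alters the crypt. Animals of both genotypes were injected with tamoxifen on 3 consecutive days and were killed 1 month after the first injection. The cKO animals carried VillinCre-ERT2 and Arid3a fl/fl, so that deletion was driven in Villin+ intestinal epithelial cells and not in stromal cells. The labels call the controls WT and do not say whether they carried the Cre or the floxed alleles. The animal numbers in the labels carry a different prefix in each genotype, so whatever the prefix stands for cannot be told apart from genotype.

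WNT ligands bind Frizzled receptors and the co-receptors LRP5 and LRP6, which halts the destruction complex and lets β-catenin accumulate and act with TCF/LEF factors on target genes. RNF43 and ZNRF3 mark Frizzled receptors for removal from the cell surface, and R-spondins bound to LGR4 or LGR5 remove these ligases in turn, so that the WNT signal grows stronger. Many of the genes that restrain the pathway, AXIN2, RNF43, ZNRF3, NKD1 and NOTUM among them, are themselves induced by it, and in the small intestine this feedback is known from the stem cells at the crypt base.

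Promoter sequence is shown for 3 members that represent the range of results below. Axin2 fell in cKO crypts, Tnfrsf19 fell most among the members, and Sp5 did not pass the test. The sequences are from RefSeq on GRCm38.p6, run 5′ to 3′ on the strand of the gene, and span 250 bases before to 50 bases after the start. The Axin2 promoter is chr11:108920099-108920398 on the plus strand and the Sp5 promoter is chr2:70474673-70474972 on the plus strand. Tnfrsf19 has 2 listed starts, with promoters at chr14:61037938-61038237 (start A) and chr14:61046806-61047105 (start B), both on the minus strand. Capitals mark matches on either strand to CTTTGAT or CTTTGAA, letters that TCF/LEF factors are known to bind, and a match on the other strand reads ATCAAAG or TTCAAAG.
Axin2: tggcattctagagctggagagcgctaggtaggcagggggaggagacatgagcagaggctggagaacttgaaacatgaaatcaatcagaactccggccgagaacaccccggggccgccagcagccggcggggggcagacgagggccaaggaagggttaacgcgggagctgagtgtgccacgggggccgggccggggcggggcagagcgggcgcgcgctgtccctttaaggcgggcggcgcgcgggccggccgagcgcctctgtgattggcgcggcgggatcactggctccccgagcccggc
Sp5: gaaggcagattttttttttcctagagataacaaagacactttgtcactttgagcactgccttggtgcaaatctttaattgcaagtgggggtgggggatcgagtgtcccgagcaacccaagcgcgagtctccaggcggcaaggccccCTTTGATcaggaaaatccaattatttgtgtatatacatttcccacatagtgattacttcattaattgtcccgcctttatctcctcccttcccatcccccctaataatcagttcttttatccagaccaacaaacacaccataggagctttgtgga
Tnfrsf19, start A: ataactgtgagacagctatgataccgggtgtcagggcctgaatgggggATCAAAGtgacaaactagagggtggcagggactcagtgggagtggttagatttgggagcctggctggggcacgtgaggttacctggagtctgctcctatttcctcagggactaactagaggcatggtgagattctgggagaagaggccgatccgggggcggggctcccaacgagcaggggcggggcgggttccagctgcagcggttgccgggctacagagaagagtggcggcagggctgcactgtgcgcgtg
Tnfrsf19, start B: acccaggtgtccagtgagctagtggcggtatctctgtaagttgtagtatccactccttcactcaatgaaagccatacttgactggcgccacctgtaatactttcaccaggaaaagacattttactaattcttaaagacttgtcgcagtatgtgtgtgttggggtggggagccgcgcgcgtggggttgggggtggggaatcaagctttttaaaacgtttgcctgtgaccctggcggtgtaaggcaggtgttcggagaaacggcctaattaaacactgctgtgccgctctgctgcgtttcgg

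The Sp5 window held 1 match on its own strand, beginning 104 bases before the start (position -104), and the window of start A of Tnfrsf19 held 1 on the opposite strand, at position -202. The Axin2 window and that of start B of Tnfrsf19 held none. Promoter entries were found for 7 of the 10 members, with 9 windows in all, and the 2 matches shown were the only ones among them. Of 32851 promoters of the same length, 8.7% held such a match. The letters ATTAAA, an AT-rich sequence of the kind that ARID proteins bind, occurred on either strand in 13.9% of all promoters and in 2 of the members' windows, those of Sp5 (position -178) and start B of Tnfrsf19 (position 16). The Axin2 window was 70.0% G and C, against a median of 52.7% over all promoters. These matches describe the letters of a short window and were not tested for binding.

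Total expected counts ranged from 27050455 to 28152743 in WT and from 28314069 to 31053622 in cKO libraries. Levels are given as CPM, counts scaled to a common library size after TMM normalization, and the genotypes were compared with edgeR's quasi-likelihood test over 14719 genes with enough counts, with Benjamini-Hochberg adjustment over all of them and a threshold of 0.05. Arid3a, the deleted gene, had 1.91, 2.06, 2.75, 2.68 and 2.69 CPM in WT replicates 1 to 5 and 0.303, 0.516, 0.489, 0.883 and 1.17 CPM in cKO replicates 1 to 5. Every cKO animal lay below every WT animal, and the fall was -1.84 on the log2 scale (SE 0.316, adjusted p = 0.00204). Of all genes tested, 15.6% passed the threshold as higher in cKO and 12.7% as lower, and the median log2 fold change was -0.03. The epithelial gene Epcam was abundant in both genotypes, at 1249 ± 81.3 CPM in WT against 1413 ± 27.9 CPM in cKO crypts. It is 1 of 6 epithelial genes, of which 2 passed, both higher in cKO: Vil1 (0.80, edgeR adjusted p = 0.00182) and Krt20 (1.47, 0.0236). The 6 summed to 4715 to 5492 CPM in WT and 5684 to 6461 CPM in cKO crypts. By comparison, 9 immune cell genes summed to 75.2 to 140 CPM in WT and 37.5 to 89.0 CPM in cKO crypts. Markers of enterocytes, Paneth cells and cycling cells moved with genotype, while none of 6 goblet cell genes passed. The summed CPM of the goblet cell genes overlapped, at 2708 to 3735 in WT and 3534 to 4245 in cKO. Of these genes 5 had a log2 fold change above 0, with a median of 0.195. The summed CPM of 7 enterocyte genes was 1705 to 6714 in WT and 8609 to 14590 in cKO, and all 7 rose. The summed CPM of 8 Paneth cell genes was 19610 to 29110 in WT and 12380 to 16750 in cKO, with 7 of 8 passing as lower. That of 8 cycling-cell genes was 1853 to 2131 in WT and 1429 to 1726 in cKO, with 4 of 8 passing as lower. These 4 were the replication genes Mcm2, Mcm5, Mcm6 and Pcna, while Top2a (edgeR adjusted p = 0.0787), Mki67 (0.172) and Ccna2 (0.329) were among those that did not pass. In bulk RNA, fewer cells of a type and less RNA per cell cannot be told apart, and the part of these shifts in the values of the members was not tested.

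Of the 10 members, 9 had enough counts to be tested, and 4 of them fell in cKO crypts, Axin2, Nkd1, Ascl2 and Tnfrsf19. Of all tested genes 28.3% passed, and 12.7% passed as lower. No member rose, and none had a fold change above 0 with an unadjusted p under 0.05, nor did any rise in DESeq2 or limma-voom. The members' median log2 fold change was -0.27, with 7 of 9 below 0, beside 54.11% of all genes below 0. The R-spondin receptors and the membrane ligases did not pass the test, the inhibitors that could be tested both fell, and of the transcription factors Ascl2 fell and Sp5 did not pass, a difference between them that was not tested. With single animals left out, the count of members past the threshold was between 2 and 4, and it was 2 without WT replicate 3, WT replicate 4, cKO replicate 1 or cKO replicate 5. It was 1 without both WT replicates 3 and 4, which held the highest WT values of Lgr5, Rnf43, Znrf3, Axin2 and Nkd1, and only Axin2 then passed the test.

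**Figure D1:**
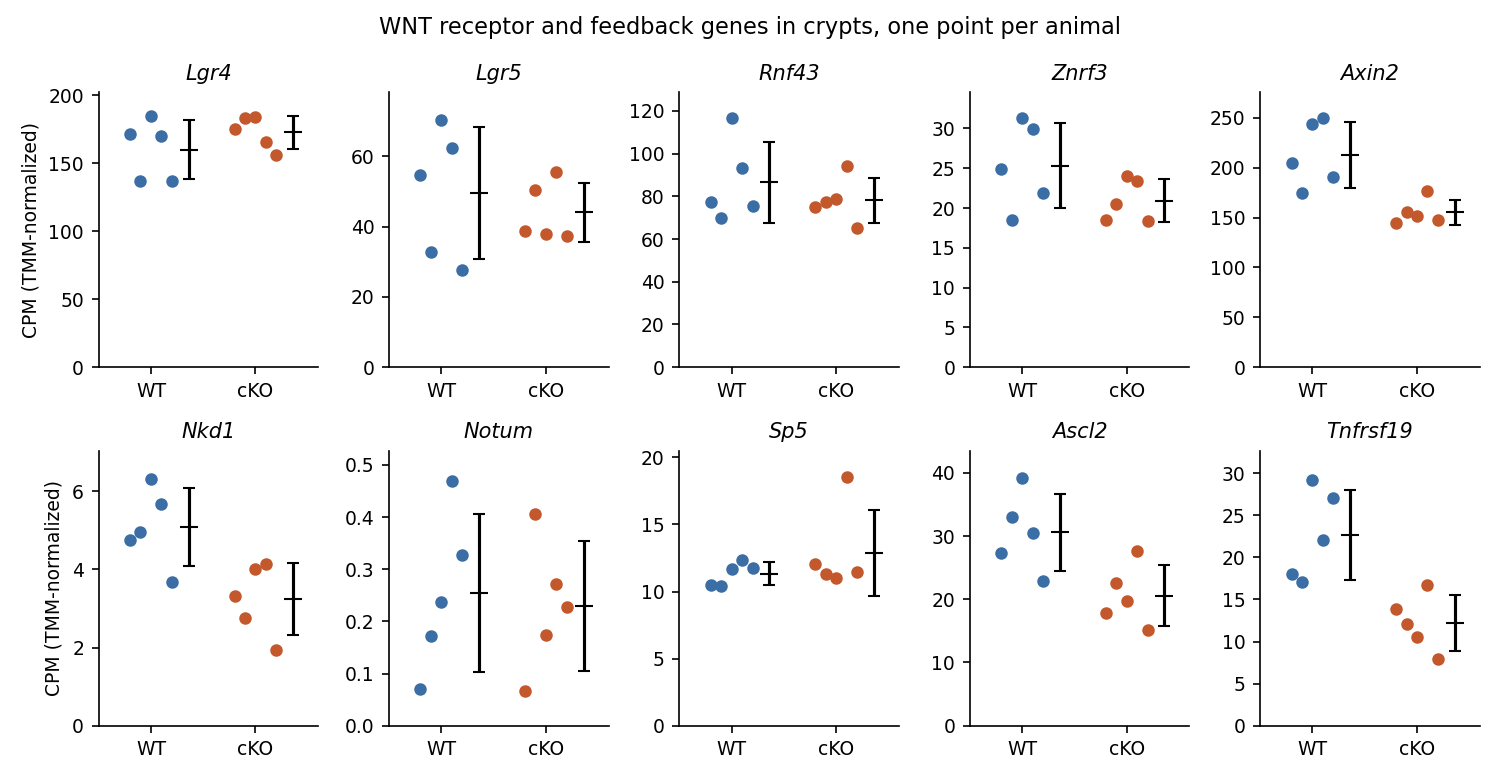
CPM of each member (vertical axes, linear, from 0) in 5 WT (blue) and 5 cKO (orange) animals, 1 point per animal in replicate order, with the mean and SD beside each group. Tnfrsf19 is the member whose groups do not overlap, the Axin2 points meet only at 177 and 175 CPM, and the WT points of Lgr5 spread from 27.5 to 70.4 CPM.

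Neither R-spondin receptor passed the test. Lgr5 (ENSMUSG00000020140, chr10:115450311-115587780, minus strand of GRCm38), the receptor that marks crypt base stem cells, had 54.7, 32.8, 70.4, 62.4 and 27.5 CPM in WT replicates 1 to 5 and 38.8, 50.5, 37.9, 55.6 and 37.3 CPM in cKO replicates 1 to 5. The WT animals fell both above and below the cKO animals, whose whole range lay inside that of WT. The mean was 49.6 ± 18.6 CPM for WT against 44.0 ± 8.45 CPM for cKO animals (SD, n = 5), and the log2 fold change was -0.17 (SE 0.258, edgeR adjusted p = 0.653). The 95% interval of that difference ran from -0.77 to 0.42, a cKO level of 58.8% to 134% of the WT level, so that a fall as large as that of Nkd1 lies inside it. The estimate was -0.01 without WT replicate 3, -0.07 without WT replicate 4 and 0.20 without both.

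Lgr4 (ENSMUSG00000050199, chr2:109917647-110014257, plus strand), the receptor that is also made outside the stem cells, had 172, 137, 185, 170 and 137 CPM in the WT animals and 176, 184, 184, 165 and 156 CPM in the cKO animals. The cKO animals again lay inside the WT range. The log2 fold change was 0.11 (SE 0.0934, edgeR adjusted p = 0.397), with a 95% interval from -0.10 to 0.33, and its sign turned to -0.02 when libraries were scaled by their totals alone. Lgr6, the remaining receptor of the family, and the 4 R-spondin genes did not pass the filter on low counts, and the summed level of these 5 genes lay between 0.201 and 1.80 CPM in WT and between 0.111 and 0.629 CPM in cKO animals. R-spondins are known to come mainly from stromal cells, whose markers were scarce in these crypts: 9 stromal genes summed to 8.23 to 84.9 CPM in WT and 9.29 to 136 CPM in cKO animals.

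Neither membrane ligase passed the test with all animals. Rnf43 (ENSMUSG00000034177, chr11:87662722-87735539, plus strand) had 77.2, 69.9, 117, 93.4 and 75.4 CPM in WT and 75.0, 77.2, 78.8, 94.3 and 65.4 CPM in cKO animals. Apart from the high WT replicate 3 the groups overlapped throughout, and the log2 fold change was -0.15 (SE 0.140, edgeR adjusted p = 0.454), or -0.02 without that animal. Znrf3 (ENSMUSG00000041961, chr11:5276324-5444847, minus strand) had 24.9, 18.5, 31.4, 29.9 and 21.9 CPM in WT and 18.5, 20.4, 24.0, 23.4 and 18.3 CPM in cKO animals. WT replicates 1, 3 and 4 stood above every cKO animal and the other WT animals lay among them. Its log2 fold change of -0.27 (SE 0.142, edgeR adjusted p = 0.166) had a 95% interval from -0.60 to 0.05. Without WT replicate 2, the lowest WT animal, Znrf3 passed the threshold at -0.37 (edgeR adjusted p = 0.0411). It passed with no other single animal left out. The estimate was -0.185 (adjusted p = 0.3565) without WT replicate 3, -0.207 (0.3423) without WT replicate 4 and -0.056 without both.

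Axin2 (ENSMUSG00000000142, chr11:108920349-108950783, plus strand), the scaffold protein of the destruction complex that WNT induces and a standard readout of the pathway, had the highest mean TPM of the members. It had 204, 175, 244, 250 and 191 CPM in WT replicates 1 to 5 and 144, 156, 152, 177 and 148 CPM in cKO replicates 1 to 5. All cKO animals lay below the WT animals except cKO replicate 4, which exceeded WT replicate 2 by a small margin. Axin2 fell from 213 ± 33.0 to 155 ± 12.7 CPM (SD, n = 5), a log2 fold change of -0.46 (SE 0.102, edgeR adjusted p = 0.00746), which is 72.9% of the WT level with a 95% interval from 61.9% to 85.9%. Axin2 passed the threshold under every one of 22 other settings, with log2 fold changes between -0.59 and -0.29. Its paralog Axin1, which is not a WNT target, also fell, from 74.3 ± 5.97 to 63.9 ± 3.76 CPM, a log2 fold change of -0.22 (SE 0.0708, edgeR adjusted p = 0.0377).

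Nkd1 (ENSMUSG00000031661, chr8:88521354-88594884, plus strand), which binds Dishevelled and damps the signal inside the cell, had 4.77, 4.95, 6.31, 5.69 and 3.67 CPM in WT and 3.33, 2.76, 4.02, 4.15 and 1.93 CPM in cKO animals. WT replicate 5 was lower than cKO replicates 3 and 4, and the other WT animals were above all cKO animals. The log2 fold change was -0.65 (SE 0.213, edgeR adjusted p = 0.0391), and it held between -0.75 and -0.51 with single animals left out. The call was lost without WT replicate 1 (adjusted p = 0.0536), 2 (0.0517), 3 (0.0946) or 4 (0.0877) and without cKO replicate 1 (0.0711), 2 (0.0846) or 5 (0.0719), so 7 of the 10 animals were each needed for it. Notum (ENSMUSG00000042988, chr11:120653788-120661175, minus strand), the secreted enzyme that removes the lipid from WNT ligands, had 2, 5, 7, 14 and 9 expected counts in WT and 2, 11, 5, 8 and 6 in cKO animals. These counts were too few for the filter, and the groups overlapped throughout.

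Ascl2 (ENSMUSG00000009248, chr7:142966829-142969264, minus strand), the stem cell factor that acts with TCF/LEF factors in the crypt base, had 27.3, 33.1, 39.1, 30.4 and 23.0 CPM in WT and 17.8, 22.6, 19.7, 27.7 and 15.2 CPM in cKO animals. WT replicates 2, 3 and 4 were above every cKO animal, and cKO replicate 4 was above WT replicates 1 and 5. Ascl2 fell from 30.6 ± 6.08 to 20.6 ± 4.82 CPM, a log2 fold change of -0.57 (SE 0.171, edgeR adjusted p = 0.0284). With single animals left out it stayed between -0.70 and -0.47, and the adjusted p exceeded the threshold without WT replicate 2 (0.0508), 3 (0.0652) or 4 (0.0560) and without cKO replicate 1 (0.0684), 3 (0.0579) or 5 (0.0568). Sp5 (ENSMUSG00000075304, chr2:70474923-70477729, plus strand), a WNT-induced repressor of the SP family, had 10.5, 10.4, 11.7, 12.3 and 11.7 CPM in WT and 12.0, 11.3, 11.0, 18.6 and 11.5 CPM in cKO animals. Outside cKO replicate 4 all animals lay close together. The log2 fold change of Sp5 was 0.19 (SE 0.141, edgeR adjusted p = 0.345) with all animals and 0.02 without cKO replicate 4.

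Tnfrsf19 (ENSMUSG00000060548, chr14:60963875-61046490, minus strand), a WNT target and stem cell marker of the crypt base, fell most. It had 18.1, 17.1, 29.2, 22.1 and 27.0 CPM in WT replicates 1 to 5 and 13.8, 12.0, 10.5, 16.8 and 7.98 CPM in cKO replicates 1 to 5. Every cKO animal lay below every WT animal, as the groups of 19.6% of all tested genes did in one direction or the other, with the closest pair at 16.8 and 17.1 CPM. The fall from 22.7 ± 5.36 to 12.2 ± 3.32 CPM gave a log2 fold change of -0.89 (SE 0.205, edgeR adjusted p = 0.00913), or 53.9% of the WT level with a 95% interval from 38.9% to 74.8%. Leaving out single animals moved it between -1.03 and -0.77, with every adjusted p at or below 0.0256. Without both WT replicates 3 and 4 it was -0.76 (adjusted p = 0.0575).

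**Figure D2:**
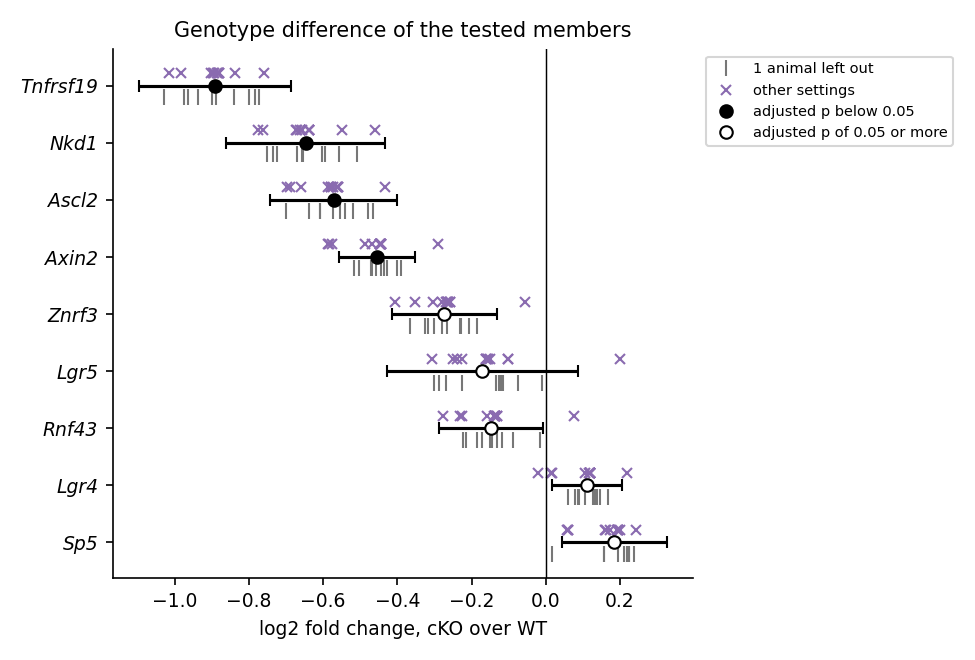
Log2 fold change of cKO over WT (horizontal axis) for the 9 tested members, with the standard error as a bar. Filled points passed the adjusted threshold, ticks are fits without 1 animal and crosses are other settings. Tnfrsf19, Nkd1, Ascl2 and Axin2 keep all marks below 0, as does Znrf3, which did not pass with all animals. Sp5 keeps all marks above 0, while Lgr5, Rnf43 and Lgr4 cross 0 in 1 setting each, at 0.20, 0.08 and -0.02.

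Levels were compared between genes in TPM, which the authors computed per transcript length. In WT crypts the mean TPM ran from Axin2 (84.1 ± 17.6) through Lgr4 (42.3 ± 7.82), Rnf43 (31.3 ± 8.05), Ascl2 (27.0 ± 5.94), Lgr5 (15.3 ± 6.66), Tnfrsf19 (7.68 ± 1.89), Sp5 (7.32 ± 0.809), Znrf3 (5.89 ± 1.55) and Nkd1 (3.11 ± 0.629) to Notum (0.250 ± 0.140). Axin2 and Lgr4, Znrf3 and Nkd1, and Nkd1 and Notum were neighbours whose ranges did not overlap, and Tnfrsf19 exceeded Sp5 in 2 of 5 WT animals, so that pair had no fixed order. In cKO crypts Axin2 (55.4 ± 6.45) and Lgr4 (42.3 ± 3.00) still led, and Tnfrsf19 (3.87 ± 1.17) came after Sp5 (7.83 ± 2.31) and Znrf3 (4.50 ± 0.667), though Znrf3 exceeded Tnfrsf19 in only 3 of 5 animals. Among neighbours in cKO, Axin2 and Lgr4, Lgr4 and Rnf43, Sp5 and Znrf3, Tnfrsf19 and Nkd1, and Nkd1 and Notum had ranges apart. On the TPM scale the highest cKO animal of Axin2 (66.5) lay just below the lowest WT animal (66.6), and for Tnfrsf19 they crossed (5.61 and 5.50), so whether these 2 genes overlap depends on the scale. The same 4 members passed the threshold when log2 TPM with a pseudocount of 0.1 was tested with limma: Axin2 at -0.58, Nkd1 at -0.76, Ascl2 at -0.69 and Tnfrsf19 at -0.98, with a median of -0.13 over all genes on that scale.

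Ratios of genes within a library do not depend on the scaling between libraries, and 6 were tested by exact permutation of the animals between genotypes (two-sided), which can give no p below 0.00794. Tnfrsf19 relative to Lgr5 was 0.360, 0.570, 0.480, 0.383 and 1.16 in WT replicates 1 to 5 and 0.408, 0.273, 0.325, 0.347 and 0.257 in cKO replicates 1 to 5. Only cKO replicate 1 reached into the WT range, above WT replicates 1 and 4, and WT replicate 5 stood far above the rest. The geometric mean went from 0.535 to 0.318, a log2 difference of -0.75 (exact permutation p = 0.0317, 0.19 after adjustment over the 6 ratios). Without WT replicate 5 that difference was -0.473. Axin2 relative to Axin1 went from 2.65 to 2.22, a log2 difference of -0.26 (exact permutation p = 0.0635, adjusted p = 0.19), so that an unequal change of the WNT-induced and the constitutive scaffold was not resolved.

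The membrane ligases relative to the R-spondin receptors, (Rnf43+Znrf3)/(Lgr4+Lgr5), had a geometric mean of 0.646 in WT and 0.563 in cKO, a log2 difference of -0.20 (exact permutation p = 0.103, adjusted p = 0.206). Lgr5 relative to Lgr4 went from 0.335 to 0.279 (exact permutation p = 0.294), Znrf3 relative to Rnf43 from 0.188 to 0.172 (p = 0.183), and Axin2 relative to Lgr5 from 5.90 to 4.68 (p = 0.183). All 6 ratios overlapped between genotypes and none passed after adjustment, so the data do not resolve whether any of these pairs changed unequally.

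**Figure D3:**
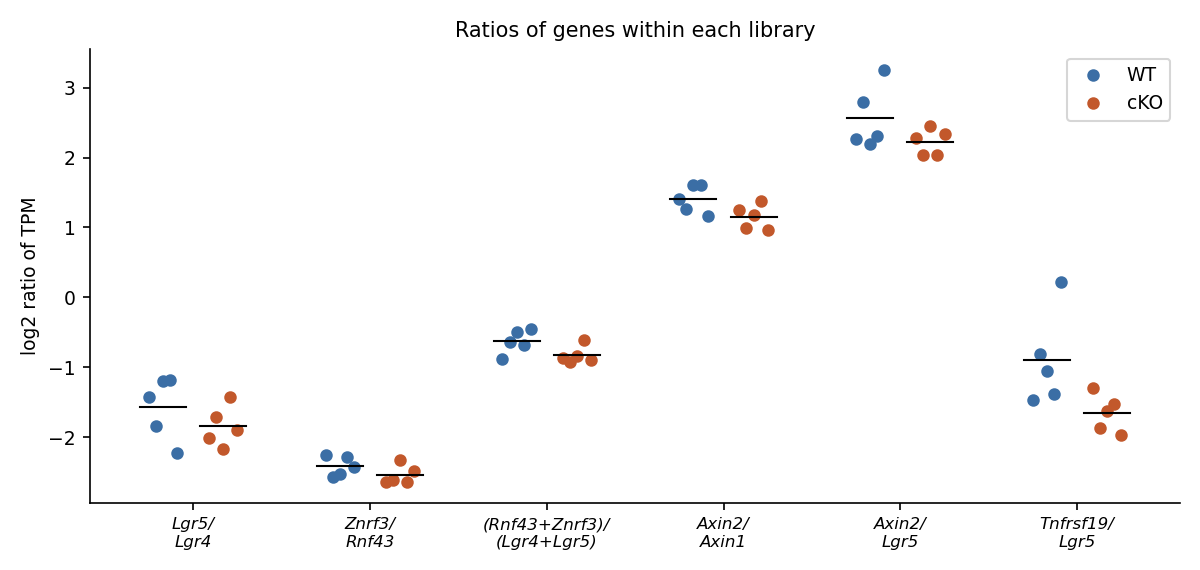
Log2 ratio of TPM within each library (vertical axis) for 6 ratios of members or sums of members, 1 of them to the paralog Axin1, with 5 WT (blue) and 5 cKO (orange) animals each in replicate order and a bar at the group mean. All cKO means lie below the WT means and all groups overlap, with Tnfrsf19/Lgr5 farthest apart at -0.75 between the means.

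Among the 9 tested members, Lgr5 had the widest spread between animals of the same genotype. The SD of log2 CPM within genotype was 0.456 for Lgr5, a spread exceeded by few genes (94.3rd percentile of 11957), then 0.362 for Tnfrsf19 (90.9), 0.332 for Nkd1 (89.3) and 0.305 for Ascl2 (87.3). It was 0.253 for Znrf3, 0.249 for Rnf43, 0.227 for Sp5, 0.177 for Axin2 and 0.159 for Lgr4 (51.1). Once the genotype means were removed, the genes most like Lgr5 across the 10 libraries were Naaladl2 (Pearson r 0.981), Chd8 (0.978), Slc12a2 (0.969), Utrn (0.968) and Kank1 (0.968), and those least like it were Ndufb2 (-0.975) and Ndufb8 (-0.972). Those most like Axin2 were Arhgap35 (0.979), Fnip2 (0.974), Tcaf1 (0.969), Ptprs (0.968) and Eml1 (0.966), with Ccdc32 (-0.981) and Lcmt1 (-0.980) least like it. Among the members, Axin2 varied with Znrf3 (0.908), Rnf43 (0.878) and Lgr5 (0.870), and less with Tnfrsf19 (0.515), while Lgr5 and Tnfrsf19 had r 0.321. These are descriptions over 10 libraries that share depth, preparation and composition and they rank 11956 genes. The WT animals weigh more in them, since the SD in WT and cKO was 18.6 and 8.45 CPM for Lgr5 and 33.0 and 12.7 CPM for Axin2.

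Utrn and Chd8 have long transcripts and the Ndufb genes short ones, so the balance of long and short transcripts was measured in each library, a step added after these genes were seen. It is the median centred log2 CPM of 1977 genes of at least 4000 bases less that of 948 genes of at most 1000 bases. It was 0.18, -0.34, 0.25, 0.16 and -0.34 in WT replicates 1 to 5 and -0.04, 0.01, -0.05, 0.12 and 0.02 in cKO replicates 1 to 5. WT replicates 2 and 5, the lowest by this measure, were also the WT animals with the least Lgr5, Lgr4 and Axin2, and WT replicate 3 had the highest score and the most Lgr5. WT replicates 2 and 5 also had the highest WT ratios of Tnfrsf19 and of Axin2 to Lgr5, and a link of the ratios to this score was not tested. The mean score did not differ detectably between genotypes (-0.02 ± 0.295 in WT and 0.01 ± 0.068 in cKO, exact permutation p = 0.802), while its spread was wider in WT. With this score as a covariate the log2 fold change was -0.15 for Lgr5 (edgeR adjusted p = 0.235), -0.47 for Axin2 (0.000944), -0.66 for Nkd1 (0.0283), -0.59 for Ascl2 (0.0218) and -0.90 for Tnfrsf19 (0.0111), and Znrf3 passed the threshold at -0.28 (0.0471).

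**Figure D4:**
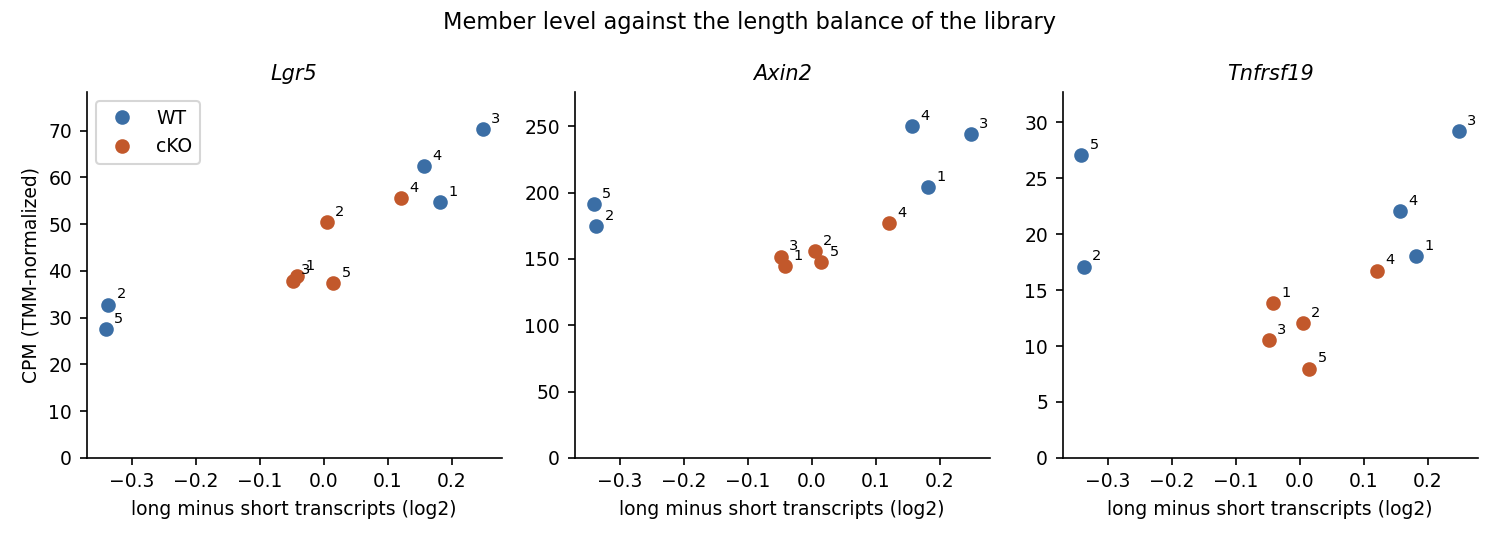
CPM of Lgr5, Axin2 and Tnfrsf19 (vertical axes, linear) against the log2 balance of long over short transcripts in each library (horizontal axis), numbered by replicate, WT in blue and cKO in orange. Lgr5 runs from 27.5 to 70.4 CPM along the axis with both genotypes on one band, while every cKO point of Tnfrsf19 is below every WT point.

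Elsewhere in the pathway the targets and the machinery gave different counts. Among 15 tested WNT target genes outside the members, 8 fell, beside 12.7% of all genes that passed as lower. Of the 15, 14 had a log2 fold change below 0, and the median was -0.37. They included the cyclin gene Ccnd1, with 165 ± 23.5 CPM in WT against 119 ± 11.6 CPM in cKO crypts (-0.47, edgeR adjusted p = 0.00600), the BMP pseudoreceptor gene Bambi (-0.69, adjusted p = 0.00751), the progenitor factor gene Sox4 (-0.42, adjusted p = 0.0457) and Tcf7, described with the nuclear factors. Mmp7 (-1.01, adjusted p = 0.00679) is also a Paneth cell gene and is counted with those markers too. Slc12a2 at -0.27 (adjusted p = 0.309), Lrig1 at -0.30 (0.0669) and Sox9 at -0.37 (0.0543) had values below 0 and did not pass. Without both WT replicates 3 and 4, 4 of the target genes passed.

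Of 10 stem cell markers outside the members, 4 fell, namely Msi1 (-0.56, edgeR adjusted p = 0.00935), Olfm4 (-0.50, 0.0250), Cdca7 (-0.38, 0.00840) and Smoc2 (-0.32, 0.0381), while Clca4b rose (0.58, 0.00197), and the median was -0.27. Olfm4, a secreted glycoprotein gene of the crypt base, averaged 5773 ± 1140 CPM in WT crypts against 4073 ± 687 CPM in cKO crypts. Their summed levels overlapped between genotypes, at 6245 to 10030 CPM in WT and 5316 to 7691 CPM in cKO. In all 5 of the 10 passed, beside 28.3% of all tested genes. The count of 5 became 3 when WT replicate 3 or 4 was left out singly, or one of cKO replicates 1, 3 or 5, and 1 without both WT replicates 3 and 4.

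Upstream of the members, changes went both ways. Wnt3, the ligand known from Paneth cells, fell from 6.16 ± 0.929 to 4.07 ± 0.242 CPM (-0.60, edgeR adjusted p = 0.00575), beside the lower Paneth cell markers given above. Wnt6 rose from 0.264 to 0.526 CPM (0.98, SE 0.324, edgeR adjusted p = 0.0390). Its WT mean was close to that of Notum (0.255 CPM), which did not pass the filter on low counts. With so low a WT level, Wnt6 passed that filter through the cKO group, where it is high, so its call is not support for a rise. The rise of Wnt6 thus rests on few counts and is less certain than the fall of Wnt3. Wnt3 and Wnt6 were the 2 that passed among 9 tested genes of WNT ligands and their secretion, beside 28.3% of all tested genes. The median of the 9 was -0.42. Their count was 1 when WT replicate 1, 3 or 4 was left out singly, or one of cKO replicates 1, 2 or 5, and also with no filter on low counts. Of 13 receptor genes, Fzd9 (-1.42, adjusted p = 0.00603), Ror2 (-0.51, 0.0287) and the co-receptor gene Lrp5 (-0.29, 0.0371) fell and Fzd4 (0.46, 0.00938) and Fzd5 (0.28, 0.0145) rose. Fzd5, which encodes a Frizzled receptor, averaged 162 ± 13.6 CPM in WT crypts against 197 ± 13.5 CPM in cKO crypts. These 5 of 13 receptor genes stood beside the 28.3% of all tested genes that passed. The count of 5 became 3 when WT replicate 3, 4 or 5 was left out singly, or one of cKO replicates 1, 2, 3 or 5, and 8 without WT replicate 2.

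Inside the cell, Ctnnb1, which encodes β-catenin, averaged 657 ± 42.8 CPM in WT crypts against 651 ± 25.6 CPM in cKO crypts (-0.01, edgeR adjusted p = 0.890). Of 17 tested genes of the destruction complex and cytoplasmic transduction, 2 fell, Csnk1e (-0.58, adjusted p = 0.00153) and Axin1, and 3 rose, Csnk1a1 (0.22, 0.0196), Gsk3a (0.22, 0.0399) and Fbxw11 (0.17, 0.0434), with a median of -0.01. These 5 of 17 were close to the 28.3% of all genes that passed. The count was 2 when WT replicate 4 or 5 was left out singly, or one of cKO replicates 1, 2 or 4, 3 without cKO replicate 3 or 5, 1 with the replicate block and 11 with the length score as a covariate. Among the TCF/LEF genes, Tcf7 and Tcf7l2 moved in opposite directions. Tcf7 fell from 22.2 ± 4.20 to 15.1 ± 1.19 CPM (-0.56, adjusted p = 0.00586) while Tcf7l2 rose from 22.6 ± 2.12 to 29.8 ± 1.50 CPM (0.39, adjusted p = 0.00398). Among 13 tested nuclear factors Pygo2 (-0.26, 0.0139) also fell and the corepressor gene Tle4 (0.35, 0.00461) rose. The 4 of 13 that passed were close to the 28.3% of all genes. None of 5 tested extracellular inhibitors other than Notum passed the adjusted threshold in edgeR, and Sfrp5, a secreted Frizzled-related protein gene, was at -0.40 (adjusted p = 0.133). Dkk3 alone had an unadjusted p under 0.05 (0.0186), and 1 of the 5 passed in DESeq2 and in limma-voom.

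**Figure D5:**
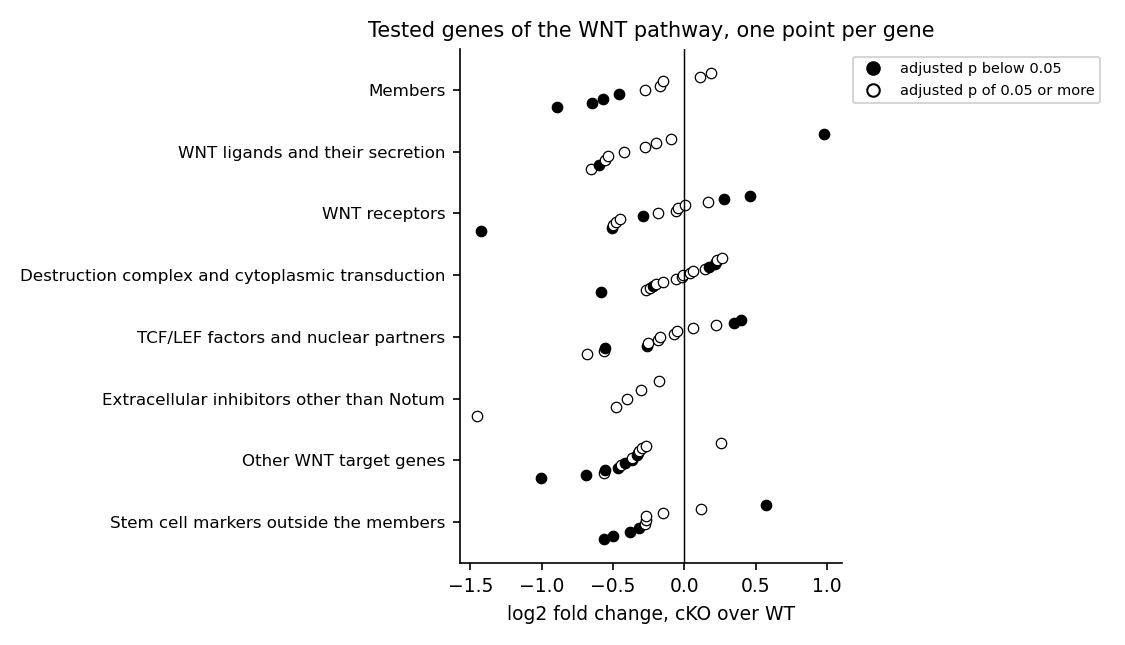
Log2 fold change of cKO over WT (horizontal axis) for the tested genes of each part of the WNT pathway, 1 point per gene, filled where the adjusted p is below 0.05. The 8 filled points among the other WNT target genes are all below 0, as are the 4 among the members, while receptors, destruction complex and TCF/LEF factors have filled points on both sides.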

How the data were processed

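Polyadenylated RNA of jejunal crypts was measured in 5 WT and 5 cKO animals, grouped by the genotype label. The authors aligned reads to GRCm38 with STAR and divided them among genes with RSEM, through nf-core/rnaseq, and deposited for each library expected counts, TPM, FPKM and gene lengths without normalization between libraries. The strand setting is not given in the sources used here, so overlapping genes may share counts, and the deposited FPKM values were not used.

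Expected counts were rounded, and edgeR 4.0.16 was run in R 4.3.3 (filterByExpr with a minimum count of 10 and a minimum total of 15, TMM, robust quasi-likelihood test, Benjamini-Hochberg). CPM and TPM are given as mean ± SD over 5 animals. The standard error is the absolute log2 fold change divided by the square root of the F statistic of the quasi-likelihood test. The 95% intervals use it with 8 residual degrees of freedom. The test itself uses moderated degrees of freedom, so intervals and p-values need not match exactly. Positions are those of GENCODE on GRCm38. Alternatives were DESeq2 1.42.0, limma 3.58.1 (voom, and log2 TPM with pseudocounts of 0.1 and 1 over genes of mean TPM of at least 0.5), other size factors, other filters, an effective length offset, a replicate block and leaving out animals. Scripts were tested on simulated data.

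Named were the members, Arid3a, paralogs, up to 5 genes per list with the largest change past the threshold and up to 3 abundant ones that did not pass, and the genes most and least like Lgr5 and Axin2. Dkk3 was named after its values were seen. The members and lists were chosen with earlier results of these data known. Totals of 27050455 to 31053622 counts leave Notum with at most 14 counts per library, so its counting error is large.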

Additional observations from a re-analysis of the deposited data

Results flagged for a closer look

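Of 32 groups of 5 values checked, covering the CPM of the members and their ratios in each genotype, 2 had an animal far from the other 4, where chance gives about 1 in 20. Both were cKO replicate 4. Its Sp5 level was 18.6 CPM, against 11.0 to 12.0 CPM in the other cKO animals. Its log2 ratio of ligases to R-spondin receptors, (Rnf43+Znrf3)/(Lgr4+Lgr5), was -0.61, against -0.92 to -0.85 in the other cKO animals. The same animal had the highest cKO values of Lgr5, Rnf43, Axin2, Nkd1, Ascl2 and Tnfrsf19 in CPM.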

How the results depend on the processing

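Axin2 kept its direction and its side of the threshold in all 22 alternatives, and Tnfrsf19 in 21. Lgr4 changed sign when libraries were scaled by library size only (-0.022), and Lgr5 (0.2) and Rnf43 (0.076) did so without both WT replicates 3 and 4, a setting chosen after the data were seen, as was the length covariate. Without both, 2142 genes passed the threshold, 670 lower and 1472 higher, and the members called, all of them lower, numbered 1. With library size only, 4030 genes were lower and 1544 higher, against 1869 and 2298 with TMM. This scaling moved the median log2 fold change of all genes to -0.16. Genes called higher numbered 1384 on log2 TPM with a pseudocount of 0.1 and 1390 with a pseudocount of 1, beside 2725 and 2739 lower, where the median of all genes was -0.13 and -0.11. Leaving out single animals gave 1131 to 2112 genes lower and 2 to 4 members called, 2 to 4 of them lower. Ascl2 also lost its call with no filter on low counts (-0.56, adjusted p = 0.0654), where 27960 genes were tested. The cause of the other changes was not tested.

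Replicate numbers do not pair the animals by the labels. With the replicate block, 4 members passed as without it, Axin2 at -0.445, Nkd1 at -0.673, Ascl2 at -0.578 and Tnfrsf19 at -0.897, and 1188 genes were lower in all. Deviations of same-numbered animals correlated between -0.157 and 0.131, and 0 of 5 pairs correlated best with their own number.

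With 5 animals per genotype, the 95% interval of Lgr5 is 58.8% to 134% of the WT level, so a fall of moderate size could not be resolved. The 2 to 14 counts of Notum allow no statement on its direction.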
